A study of Mus musculus with 48 samples.

Results

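This report describes the transcripts of 10 genes that encode Piezo, TRP and other mechanosensitive channels, Piezo1, Piezo2, Trpc1, Trpm4, Trpm7, Trpv2, Pkd1, Pkd2, Tmem63a and Tmem63b, out of 47480 gene symbols in the count tables. The genes were chosen by name, as channels that have been tied to the sensing of membrane tension, and all 10 are present in both tables and passed the filter on low counts in every comparison. RNA came from C2C12 cells, an established mouse myoblast line that fuses into multinucleated muscle cells, studied as undifferentiated myoblasts and as differentiated cells. Stretched cells underwent cyclic, equibiaxial stretching on collagen-coated flexible plates and were collected at 1 h, at 3 h and at 6 h. Each time had its own non-stretched cells, kept on plates of the same kind. The labels call the molecule nuclear RNA, whereas the study's methods name a kit for mRNA, and the counts do not settle which applies. Neither group carried a transgene or received a drug. Each of the 12 groups holds 4 libraries, 48 in all. All cells come from 1 line, and the myoblasts were plated more sparsely and kept in growth serum, whereas the differentiated cells had been shifted to horse serum. Replicates 7 and 8 of a group came from 1 experiment and replicates 9 and 10 from another, and no experiment held both stages. An exception is the group of differentiated cells stretched for 1 h, with replicates 7, 8 and 9 and a replicate 4 whose experiment has no further library. The experiments are those of the sample titles, and the study's methods divide the differentiated libraries among experiments in another way. The title of stretched myoblast replicate 9 at 1 h has an experiment code of its own, which was read as a misprint of the code of replicate 10. The p-values measure only the spread among these libraries.

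Mechanosensitive channels open when the membrane is stretched or when force reaches them through the cytoskeleton, and most of them let calcium or other cations into the cell. In muscle cells calcium entry feeds into signaling, fusion and repair, and it adds to the calcium that the sarcoplasmic reticulum releases. Piezo1 and Piezo2 are large trimeric channels gated by membrane tension. Trpc1, Trpm4, Trpm7, Trpv2 and Pkd2 belong to the TRP superfamily, for most of which gating by force itself is debated, Pkd1 encodes the large receptor-like partner of Pkd2, and Tmem63a and Tmem63b are members of the OSCA/TMEM63 family of tension-gated channels.

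The libraries held between 48447318 and 77080730 counts, and levels are given as CPM, the counts scaled to a common library size with TMM factors. The stages matched their markers: all 8 differentiated muscle markers, Myog and Myh3 among them, were higher in differentiated cells and all 4 proliferation markers were lower, whereas of 3 markers of reserve or satellite cells Pax7 rose by 0.23, Myf5 fell by 1.08 and Cd34 fell by 0.52 on the log2 scale. Of 8 markers of fat, bone, endothelial and blood cells, none passed the filter in the comparison of the stages, and the highest count of any of them in a library was 18, for Cdh5 in myoblasts. The stretch was visible in the early response genes of myoblasts at 1 h, where Egr1 rose by 1.40, Fos by 2.16, Cyr61 by 0.81 and Ctgf by 0.65 on the log2 scale. In differentiated cells at 1 h Fos rose by 2.76 and Cyr61 by 1.83, while Egr1 (1.33) and Ctgf (2.10) did not pass the adjusted threshold. The rise of these 4 genes did not last. At 3 h 1 was called higher and 1 lower in myoblasts, and 2 higher and 1 lower in differentiated cells. At 6 h 3 were lower in myoblasts and 2 in differentiated cells, with 0 higher in either stage.

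Piezo1 was the most abundant of the 10 transcripts per length in both stages. To compare genes, the CPM of the 12 non-stretched libraries of a stage was divided by the length of the gene's annotated exons in kilobases. In myoblasts Piezo1 reached 35.5 ± 1.84 CPM per kb (SD, n = 12). It was followed by Tmem63b at 19.1 ± 0.468 and Tmem63a at 18.9 ± 0.838 CPM per kb, whose libraries overlapped. Trpm7, a channel fused to a kinase and a route for magnesium, had 13.04 ± 0.680 CPM per kb and overlapped Pkd1 at 11.6 ± 1.10. Pkd2 lay below both at 7.21 ± 0.173 CPM per kb. The remaining members were scarce. Trpv2 had 1.61 ± 0.165 CPM per kb and overlapped Trpm4 at 1.22 ± 0.0924, and Trpc1 at 0.789 ± 0.0472 overlapped Piezo2 at 0.740 ± 0.0773. The counts behind the scarcest members ran from 308 to 479 per library for Trpc1 and from 612 to 947 for Piezo2.

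In differentiated cells the same measure placed Piezo1 first at 30.4 ± 1.70 CPM per kb, and Tmem63b at 22.7 ± 0.509 overlapped Pkd1 at 22.4 ± 3.09. Tmem63a followed at 15.98 ± 0.536, Trpm7 at 11.3 ± 0.452 and Pkd2 at 6.13 ± 0.0929 CPM per kb, each apart from its neighbours in the order. Below them came Trpm4 at 2.49 ± 0.148, Trpv2 at 1.02 ± 0.0988, Piezo2 at 0.758 ± 0.0660 and Trpc1 at 0.482 ± 0.0381 CPM per kb, and of these only Trpv2 and Piezo2 overlapped. The order depends in part on the length used. With the longest annotated transcript in place of all exons, Trpm4 lay above Trpv2 in myoblasts (3.05 against 1.96 CPM per kb), and Piezo1 and Tmem63b overlapped in differentiated cells (36.7 and 35.3 CPM per kb). With that length Pkd1 overlapped Pkd2 in myoblasts (14.2 and 14.1 CPM per kb) and Tmem63a in differentiated cells (27.6 and 21.7 CPM per kb).

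**Figure D1:**
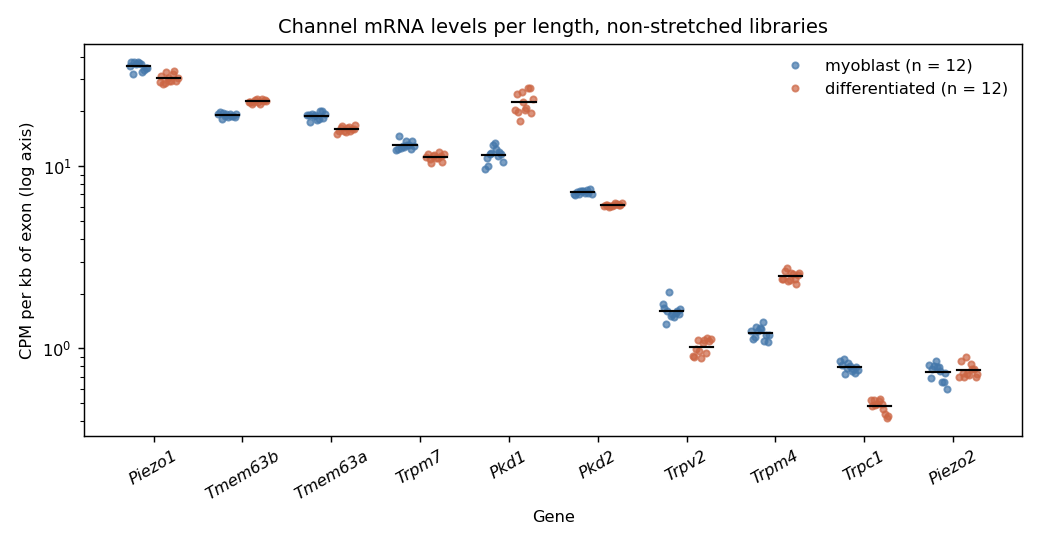
Level of each of the 10 channel transcripts as CPM per kb of annotated exon on a log axis, in the 12 non-stretched libraries of each stage (points; the black line is the mean). Piezo1 lies highest in both stages, at 35.5 CPM per kb in myoblasts and 30.4 in differentiated cells, and all differentiated libraries of Trpm4, Pkd1 and Tmem63b sit above the myoblast libraries.

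On the mm10 build Piezo1 occupies chr8:122481698-122551329, Trpc1 chr9:95705082-95750375, Trpm4 chr7:45302632-45333780 and Trpm7 chr2:126791565-126876230, all on the minus strand. Trpv2 occupies chr11:62574486-62600515, Pkd1 chr17:24549834-24596508, Pkd2 chr5:104459450-104505819 and Tmem63a chr1:180942344-180975112 on the plus strand. Piezo2 is on chromosome 18 and Tmem63b is at chr17:45660171-45686905, both on the minus strand. At most 2.51% of the 31-base stretches of a member also occur in other genes, the most for Trpv2. Exons of Piezo1 overlap Ctu2 on the opposite strand over 2441 bases, those of Pkd1 overlap Tsc2 over 693, those of Tmem63b overlap 2 genes over 394 and those of Tmem63a overlap an antisense gene over 157. The library kit marks strand, but whether the counting used it is not given in the sources used here, so reads of these stretches may be shared with the partner gene.

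The first comparison asked how the channels differ between non-stretched differentiated cells and myoblasts. Trpm4 and Pkd1 were higher in differentiated cells and Trpc1 and Trpv2 were lower, each by more than 0.58 on the log2 scale, the fold limit taken from the study. At an adjusted p under 0.05 in edgeR's quasi-likelihood test, 9 of the 10 members differed, 3 higher and 6 lower, in a comparison in which 90.6% of all genes tested did so, 45.6% higher and 45.0% lower. Past the fold limit as well were 4 of 10, against 50.5% of all genes. The median difference of the members was -0.25 on the log2 scale and that of all genes 0.01. In bulk RNA, fewer cells of a type and less RNA per cell cannot be told apart, and stage cannot be told apart from experiment.

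The start regions of the members past the fold limit are shown because the muscle regulators MyoD and myogenin bind E-boxes, of which CAGCTG and CAGGTG are preferred forms. The sequences are from RefSeq (GRCm38.p6, the mm10 assembly) and run from 250 bases before to 50 bases after an annotated start. Sequences of 8 of the 10 members were used, and Trpm4 was not matched. The sequences are written in the direction of the gene, and capitals mark CAGCTG or CAGGTG on either strand. Trpc1 is at chr9:95750299-95750598 on the minus strand, Trpv2 at chr11:62574236-62574535 on the plus strand and Pkd1 at chr17:24549700-24549999 on the plus strand.
Trpc1: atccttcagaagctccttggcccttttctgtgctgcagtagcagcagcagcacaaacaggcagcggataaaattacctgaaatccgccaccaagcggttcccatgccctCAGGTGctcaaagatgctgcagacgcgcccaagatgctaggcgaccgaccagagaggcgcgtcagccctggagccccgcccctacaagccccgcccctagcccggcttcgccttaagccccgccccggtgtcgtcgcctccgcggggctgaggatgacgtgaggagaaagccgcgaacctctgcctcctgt
Trpv2: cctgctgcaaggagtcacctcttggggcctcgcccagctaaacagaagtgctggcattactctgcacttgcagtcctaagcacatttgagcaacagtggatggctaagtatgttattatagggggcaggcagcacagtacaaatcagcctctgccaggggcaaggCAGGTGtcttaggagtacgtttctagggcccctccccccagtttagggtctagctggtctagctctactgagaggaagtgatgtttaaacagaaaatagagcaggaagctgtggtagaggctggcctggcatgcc
Pkd1: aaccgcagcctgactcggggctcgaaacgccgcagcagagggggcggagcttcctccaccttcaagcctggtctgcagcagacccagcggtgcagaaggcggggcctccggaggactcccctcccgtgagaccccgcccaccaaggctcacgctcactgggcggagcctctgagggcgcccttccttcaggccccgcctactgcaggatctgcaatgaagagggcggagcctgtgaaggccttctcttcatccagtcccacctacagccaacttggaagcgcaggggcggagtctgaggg

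The windows of Trpc1 and Trpv2, the members that were lower past the fold limit, each hold 1 CAGGTG, and the window of Pkd1, which was higher, holds neither motif. RefSeq gives 3 starts for Trpv2, the most upstream of which is shown. The window of the next start overlaps it and holds the same CAGGTG, and that of the last start holds 1 on the opposite strand. Neither motif occurs in the windows of Piezo1, Trpm7, Pkd2 and Tmem63a, which were lower by less than the fold limit, or in that of Tmem63b. CAGGTG was found in 20.2%, CAGCTG in 16.3% and either motif in 32.9% of 32851 windows of the same length. A match describes letters and is not a binding site.

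Trpm4, a calcium-activated channel that carries sodium rather than calcium, had from 11.8 to 15.1 CPM (median 13.2) in the 12 non-stretched myoblast libraries and from 24.5 to 29.99 CPM (median 26.9) in the 12 differentiated ones. The stages did not overlap, and the log2 difference was 1.01 (SE 0.04, edgeR adjusted p = 1e-19). Pkd1, which encodes polycystin-1, had from 169 to 232 CPM (median 204) in myoblasts and from 310 to 471 CPM (median 379) in differentiated cells. Its stages did not overlap either (log2 difference 0.93, SE 0.06, edgeR adjusted p = 2.9e-14), and the differentiated libraries were the more widely spread.

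Trpc1, a subunit of cation channels in the plasma membrane, had from 5.82 to 7.04 CPM (median 6.28) in myoblasts and from 3.33 to 4.21 CPM (median 3.95) in differentiated cells, again without overlap (log2 difference -0.74, SE 0.04, edgeR adjusted p = 1.6e-16). Trpv2, a calcium-permeable channel of the vanilloid group, had from 6.12 to 9.10 CPM (median 7.10) in myoblasts and from 3.98 to 5.13 CPM (median 4.61) in differentiated cells. All of its myoblast libraries lay above all differentiated ones (log2 difference -0.68, SE 0.06, edgeR adjusted p = 1.3e-11).

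The other members differed by less than the fold limit. Piezo1 fell by 0.25, Trpm7 by 0.24, Pkd2 by 0.26 and Tmem63a by 0.27 on the log2 scale, and Tmem63b rose by 0.22. The stages did not overlap for Trpm7, Pkd2, Tmem63a and Tmem63b either, whereas those of Piezo1 did. How often the stages did not overlap over all genes was not counted. Piezo2 had from 10.2 to 14.7 CPM (median 13.1) in myoblasts and from 11.95 to 15.4 CPM (median 12.5) in differentiated cells, and its difference of 0.01 (SE 0.05, edgeR adjusted p = 0.85) is smaller than the spread within a stage. Among non-stretched libraries of 1 stage no member differed between 6 h and 1 h at an adjusted p under 0.05 in edgeR. This comparison called 0.788% of all genes in myoblasts and 0.0% in differentiated cells, where 1926 genes had an unadjusted p under 0.05.

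Other channel and calcium handling genes are described by list, beside the 90.6% of all genes tested that differed between the stages. The filter on low counts keeps a gene with enough counts in either stage. A gene scarce in myoblasts could therefore be tested only because it was high in differentiated cells. The counts and medians of the lists partly reflect this. Of 27 other TRP superfamily genes 9 could be tested, and 7 were higher and 2 lower in differentiated cells, with a median of 1.31 on the log2 scale. Of 26 other stretch- or swelling-activated channel genes 14 could be tested, and 5 were higher and 8 lower, with a median of -0.23. Lrrc8e, a subunit of volume-regulated anion channels, fell by 1.95, Kcnk2, a tension-gated potassium channel, by 1.90, and Gja1, the gap junction protein connexin 43, by 1.69.

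Among calcium store and entry genes 12 of 17 tested were higher and 4 lower (median 0.37). Casq2, a calcium buffer of the sarcoplasmic reticulum, went from a median of 0.729 to 1120 CPM, and Atp2a1, its calcium pump, from 1.56 to 800.3 CPM. All 6 voltage-gated calcium channel subunits tested were higher (median 3.34), a count and a median that partly reflect the filter. Cacna1s, the voltage sensor of skeletal muscle, went from a median of 0.145 to 337 CPM. Of 8 scaffold and auxiliary genes tested 2 were higher and 5 lower (median -0.13). Cav3, the muscle caveolin, went from a median of 0.113 to 103 CPM, while Cav2 fell by 2.19.

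**Figure D2:**
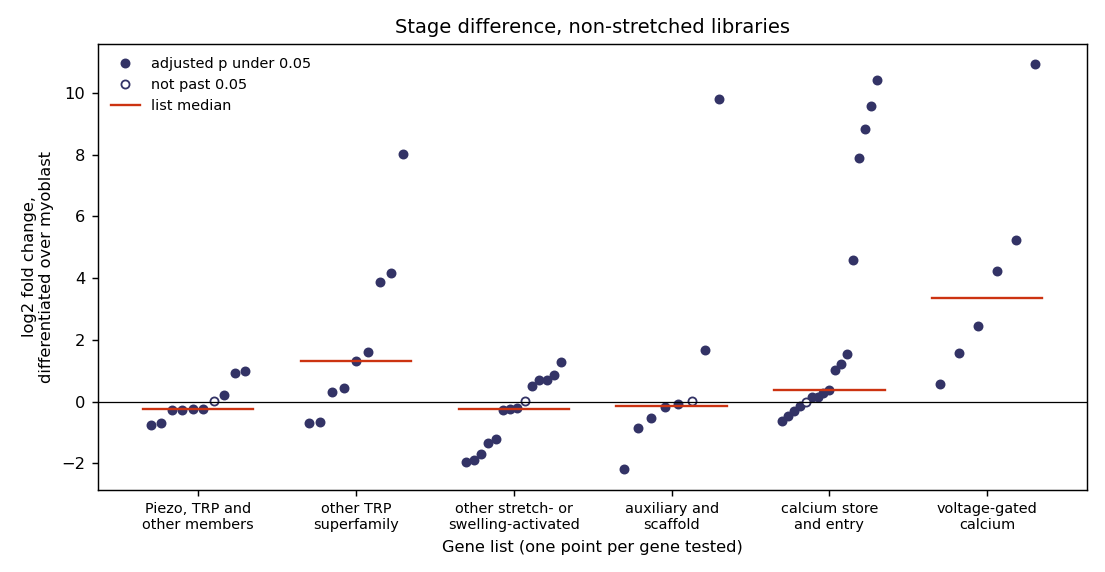
Log2 fold change of differentiated over myoblast, non-stretched libraries, for each gene tested in 6 lists (filled points have an adjusted p under 0.05, red lines are list medians). The 10 channel members lie between -0.74 and 1.01 around a median of -0.25, whereas the voltage-gated calcium channel subunits have a median of 3.34. Values of genes near 0 counts in myoblasts depend on the prior count of the fit, and such genes could pass the filter through differentiated libraries alone.

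The second comparison asked whether stretching changed the channel transcripts. None of the 10 members passed both the adjusted p and the fold limit in any of the 6 comparisons of stretched with non-stretched cells, which called by that rule 1.25%, 1.71% and 2.17% of all genes in myoblasts at 1 h, 3 h and 6 h. In differentiated cells it called 0.27%, 1.63% and 2.04%. The 0.27% are 42 genes, and leaving out 1 library moved that count to between 9 (without non-stretched replicate 7 or 9) and 87 (without stretched replicate 9). Every stretch effect on a member was between -0.28 and 0.21 on the log2 scale. At an adjusted p under 0.05 alone, in edgeR's quasi-likelihood test, members were called in myoblasts at 3 h and 6 h and in differentiated cells at 3 h.

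**Figure D3:**
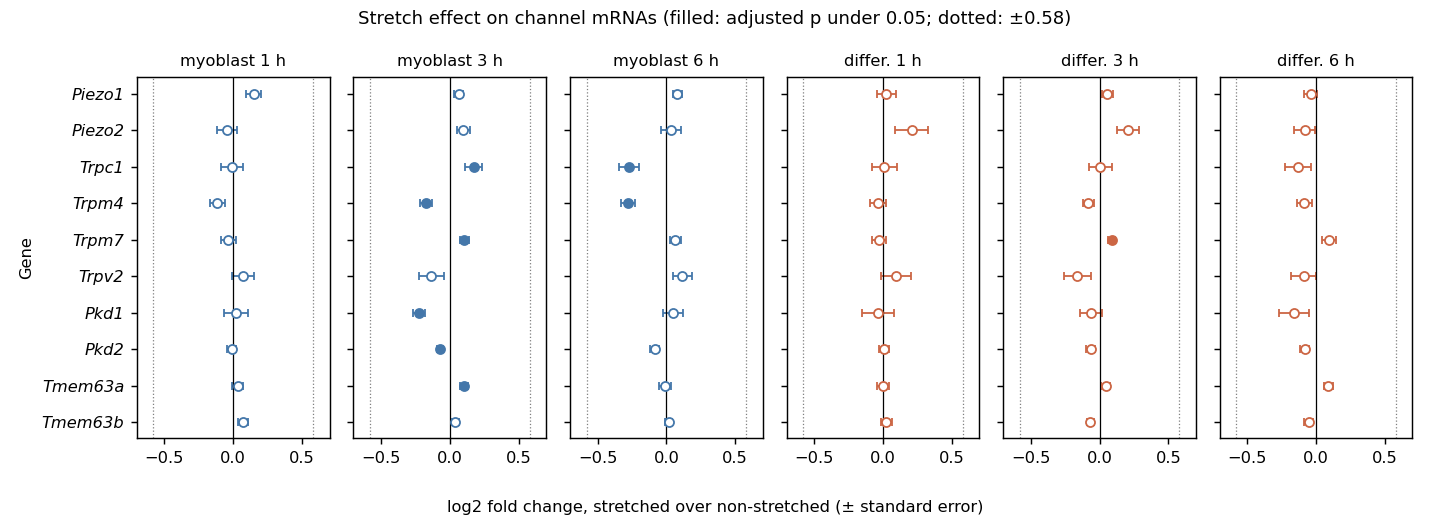
Log2 fold change of stretched over non-stretched cells, with its standard error, for the 10 members in the 6 comparisons (4 against 4 libraries each). Filled points have an adjusted p under 0.05, 6 of them in myoblasts at 3 h, 2 at 6 h and 1 in differentiated cells at 3 h, and all points lie inside the dotted lines at 0.58 in either direction.

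At 1 h no member was called by edgeR in either stage, where 5.92% of all genes were called in myoblasts and 0.663% in differentiated cells. These shares depend on the libraries used. Leaving out 1 moved the 884 genes of myoblasts to between 472 (without stretched replicate 10; 478 without stretched replicate 9) and 903. It moved the 103 genes of differentiated cells to between 10 (without non-stretched replicate 7) and 206 (without stretched replicate 9), by more than 1.5 times for each of the 8 libraries. With the experiment as a covariate edgeR called 112 genes higher and 180 lower in differentiated cells, against 30 and 73 without it. An unadjusted p under 0.05 was reached by 1 member in myoblasts and by 0 in differentiated cells. In myoblasts Piezo1 had 353, 370, 318 and 371 CPM without stretching and 363, 403, 408 and 392 CPM with stretching. The groups overlapped in 1 stretched library, and the log2 difference was 0.15 (SE 0.05, edgeR adjusted p = 0.15). With all 24 myoblast libraries in 1 model the adjusted p was 0.037.

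In myoblasts at 3 h 6 of 10 members had an adjusted p under 0.05, 3 higher and 3 lower, while 31.9% of all genes did, 16% higher and 15.8% lower. Trpm4 had 13.5, 14.0, 13.8 and 15.1 CPM without and 12.5, 12.5, 12.7 and 12.7 CPM with stretching. All stretched libraries lay below the non-stretched ones (log2 difference -0.17, SE 0.04, edgeR adjusted p = 0.01). Pkd1 had 206, 227, 232 and 217 CPM without and 195, 203, 189 and 175 CPM with stretching, with no overlap (-0.22, SE 0.05, edgeR adjusted p = 0.0026). The non-stretched libraries of this time were high for Pkd1, since those of 1 h had from 169 to 203 CPM and those of 6 h from 185 to 207 CPM. Pkd2, the channel partner of polycystin-1, had from 72.8 to 74.7 CPM without and from 70.2 to 72.3 CPM with stretching (-0.07, SE 0.02, edgeR adjusted p = 0.03).

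Higher in these stretched myoblasts were Trpc1, Trpm7 and Tmem63a. Trpc1 had 6.24, 6.66, 6.43 and 6.01 CPM without and 6.98, 6.82, 7.64 and 7.42 CPM with stretching (0.17, SE 0.06, edgeR adjusted p = 0.048). The groups did not overlap, but their nearest libraries were 6.66 and 6.82 CPM. Trpm7 had 146, 145, 155 and 147 CPM without and 166, 157, 158 and 163 CPM with stretching (0.11, SE 0.03, edgeR adjusted p = 0.018). Tmem63a had 84.8, 85.9, 80.2 and 81.5 CPM without and 87.0, 90.3, 90.0 and 92.0 CPM with stretching (0.10, SE 0.03, edgeR adjusted p = 0.014). In both genes the stretched libraries all lay above the others, by a small margin.

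How firmly these calls hold differs. Leaving out each of the 8 libraries in turn kept the adjusted p under 0.05 in all 8 fits for Trpm4, Pkd1 and Tmem63a. Trpm7 lost it without non-stretched replicate 8 (edgeR adjusted p = 0.055) and without stretched replicate 7 (0.059) or 10 (0.057). Pkd2 kept it only when non-stretched replicate 7, non-stretched replicate 10 or stretched replicate 8 was left out, and over the 8 fits its edgeR adjusted p ran from 0.036 to 0.080. Trpc1 kept it only without replicate 8 of either group, with a range from 0.043 to 0.13. Trpc1 was not called by DESeq2 (adjusted p = 0.068), by edgeR without a filter on low counts (0.080) or by edgeR with all 24 myoblast libraries in 1 model (0.077). Pkd2 was not called without the filter (edgeR adjusted p = 0.0996) and Trpm7 not with the 24 libraries (0.12). Piezo1, not called with all 8 libraries (0.06, SE 0.03, edgeR adjusted p = 0.19), was called without stretched replicate 10 (0.013). The non-stretched libraries of this time held from 48447318 to 59115866 counts and the stretched ones from 53159562 to 68967899. The TMM factors of the groups, computed over all 48 libraries and not in the fit of this time, did not overlap (1.02 to 1.05 against 0.978 to 1.01). A refit with RLE, another scaling, called 2427 of all genes higher and 2310 lower, against 2373 and 2346 with TMM. The part of depth in the result was not tested. Myog, a marker of differentiation present at a low level in myoblasts, fell by 0.82 at this time. The summed level of the 8 muscle markers ranged from 9.74 to 15.6 CPM without and from 8.88 to 11.6 CPM with stretching, 1 of 6 markers tested was called, and of 4 proliferation markers Ccnb1 rose by 0.13 and Top2a fell by 0.09. The part of these markers in the channel values was not tested.

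In myoblasts at 6 h 2 of 10 members were called, where 27.2% of all genes were, and both were lower, as were 13% of all genes. Trpm4 had 11.96, 12.9, 11.8 and 12.8 CPM without and 9.97, 10.5, 9.46 and 10.3 CPM with stretching. Every stretched library lay below every non-stretched one, by more than the spread of either group (-0.28, SE 0.05, edgeR adjusted p = 0.0028). Trpc1 had 6.21, 5.85, 6.32 and 6.12 CPM without and 4.77, 4.77, 5.62 and 4.87 CPM with stretching, without overlap (-0.27, SE 0.07, edgeR adjusted p = 0.017). Replicate 9 was the stretched library nearest to the non-stretched ones. Both calls kept their adjusted p in all 8 fits that left out 1 library. Within the experiment of replicates 7 and 8 the mean log2 CPM of stretched libraries differed by -0.34 for Trpc1 and -0.28 for Trpm4, and within that of replicates 9 and 10 by -0.25 and -0.31. Pkd2 had from 71.8 to 76.4 CPM without and from 66.6 to 71.2 CPM with stretching, without overlap, but was not called (-0.08, SE 0.03, edgeR adjusted p = 0.089), except with all 24 myoblast libraries in 1 model (0.016). Of 4 proliferation markers 2 were lower at this time, Ccnb1 (-0.14) and Top2a (-0.13), and the summed level of the 4 was from 1573 to 1704 CPM without and from 1375 to 1619 CPM with stretching. Myog was lower (-0.54), Pax7 was lower (-0.23) and Myf5 was higher (0.40), and the part of these markers in the channel values was not tested.

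**Figure D4:**
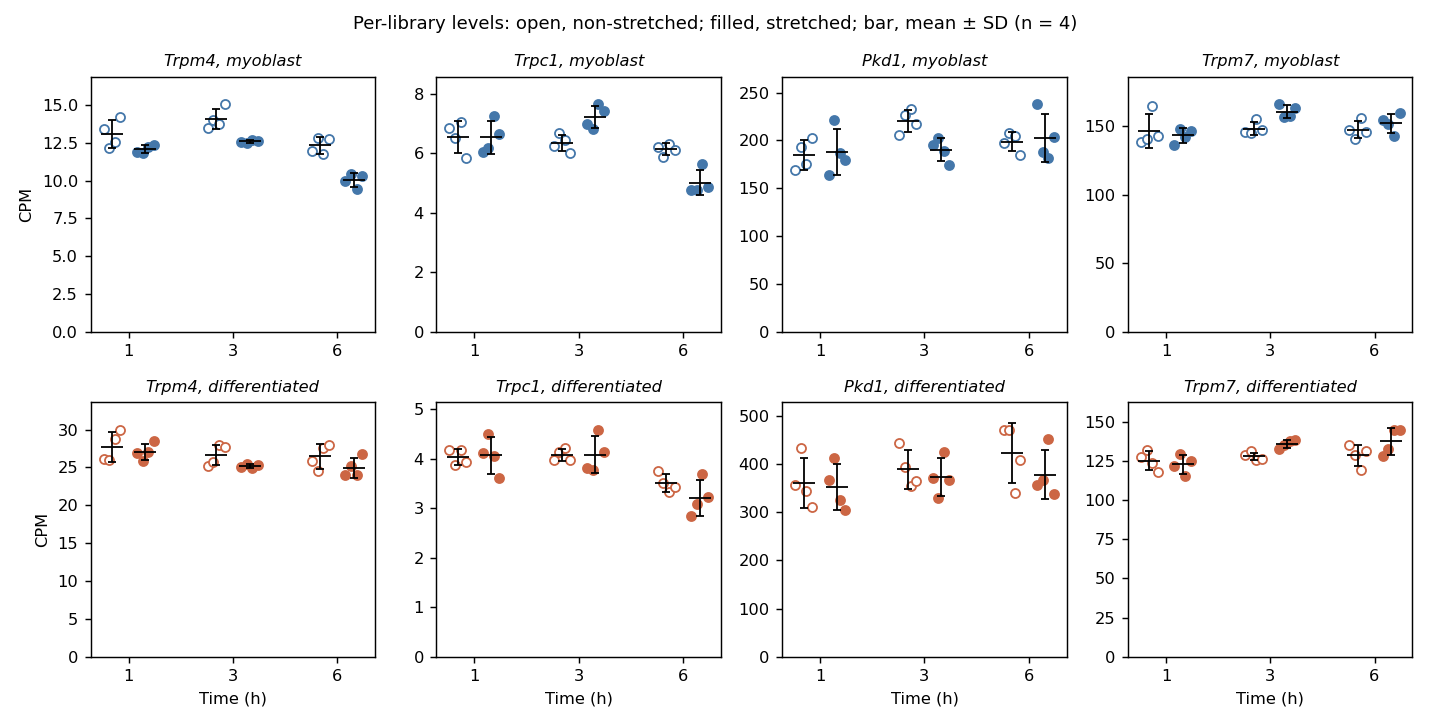
CPM of Trpm4, Trpc1, Pkd1 and Trpm7 in each library at 1, 3 and 6 h, with myoblasts above and differentiated cells below (open points, non-stretched; filled points, stretched; bars, mean ± SD of 4 libraries). At 6 h the stretched myoblast libraries of Trpm4 (9.46 to 10.5 CPM) and Trpc1 (4.77 to 5.62 CPM) lie below all non-stretched ones, while at 3 h those of Trpc1 (6.82 to 7.64 CPM) lie above.

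The effects on Trpc1 thus had opposite signs at 3 h, where the call was lost in most of the fits that left out 1 library, and at 6 h. The difference between those effects was tested with an interaction term, a comparison that was added after the values of Trpc1 had been seen. Trpc1 differed by -0.45 (SE 0.09, edgeR adjusted p = 0.0012) and Pkd1 by 0.27 (SE 0.10, edgeR adjusted p = 0.044), so 2 of 10 members were called, where 28.4% of all genes were. The result for Trpc1 kept its adjusted p in all 16 fits that left out 1 library and that for Pkd1 in 5 of 16, with an edgeR adjusted p for Pkd1 from 0.019 to 0.091. Between 6 h and 1 h no member was called in myoblasts, where 18.1% of all genes were, and Trpc1 differed by -0.26 (SE 0.11, edgeR adjusted p = 0.097; 0.038 without replicate 9 of the stretched cells at 6 h). These tests share the 6 h libraries. In differentiated cells edgeR called no member between 6 h and 3 h or between 6 h and 1 h, where 15.3% and 8.69% of all genes were called.

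In differentiated cells at 3 h 1 of 10 members was called, where 22.2% of all genes were. Trpm7 had 129, 131, 126 and 126 CPM without and 132, 135, 138 and 138 CPM with stretching, without overlap (0.09, SE 0.03, edgeR adjusted p = 0.034), and it kept its call only without non-stretched replicate 8 or stretched replicate 7, with an edgeR adjusted p from 0.041 to 0.098 over the 8 fits that left out 1 library. It was not called by edgeR without a filter on low counts (adjusted p = 0.098) or with all 24 differentiated libraries in 1 model (0.20). Of 4 proliferation markers 3 were higher at this time, Ccnb1 (0.34), Cdk1 (0.22) and Top2a (0.12), and their part in the Trpm7 values was not tested. Piezo2, best known from sensory neurons, had 15.4, 12.4, 12.2 and 14.0 CPM without and 16.96, 14.0, 15.7 and 15.7 CPM with stretching. The groups overlapped and the difference of 0.21 (SE 0.08, edgeR adjusted p = 0.085) did not pass, but passed without non-stretched replicate 7 (0.030) or stretched replicate 8 (0.046).

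At 6 h no member was called in differentiated cells, where edgeR called 22.3% of all genes and 2 members had an unadjusted p under 0.05. The groups did not overlap for Pkd2, Tmem63a and Tmem63b. How often this held over all genes was not counted, so it is not read as a result about these members. Pkd2 had from 62.1 to 64.0 CPM without and from 57.1 to 61.7 CPM with stretching (-0.08, SE 0.03). Tmem63a had from 70.0 to 75.5 CPM without and from 75.8 to 78.8 CPM with stretching (0.09, SE 0.03), and was called only without non-stretched replicate 10 (edgeR adjusted p = 0.048). Tmem63b had from 116 to 119 CPM without and from 110 to 115 CPM with stretching (-0.06, SE 0.03). For Trpc1 and Trpm4, which had fallen in myoblasts at this time, the differences were -0.13 (SE 0.10) and -0.09 (SE 0.05). Within the experiment of replicates 7 and 8 Trpc1 differed by -0.30 in mean log2 CPM and Pkd1 by -0.38, and within that of replicates 9 and 10 by 0.03 and 0.07.

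Whether stretching acted differently in the stages was tested at each time with an interaction term. No member was called by edgeR at 1 h, 3 h or 6 h, where 0.0%, 1.79% and 5.18% of all genes were. The number of all genes with an unadjusted p under 0.05 was 705, 2189 and 3134. For Trpm4 at 6 h the differentiated effect minus the myoblast effect was 0.19 (SE 0.07, edgeR adjusted p = 0.17) and for Trpc1 it was 0.13 (SE 0.11, edgeR adjusted p = 0.57).

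Of Trpv2, no stretch effect was called at any time, and its differences ranged from -0.16 in differentiated cells at 3 h to 0.12 in myoblasts at 6 h. Piezo1 differed by 0.08 in myoblasts at 6 h (edgeR adjusted p = 0.088, and 0.043 without stretched replicate 8), and by 0.02, 0.06 and -0.04 in differentiated cells at 1 h, 3 h and 6 h. Over the means of the 12 groups, with the mean of each stage removed, the 3 genes whose log2 CPM was most like that of Piezo1 among 11068 candidates were Clptm1 (Pearson r = 0.906), Tns1 (0.893) and Tmem2 (0.876). For Piezo2 they were Glis3 (0.946), Creb3l1 (0.944) and Col5a1 (0.941). These are descriptions over 12 groups that share experiments and time points. The genes were picked as the highest of 11068 correlations, and how high the best of so many unrelated genes would reach was not tested.

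Other channel and calcium handling genes were called at the same times, beside 31.9% of all genes in myoblasts at 3 h and 27.2% at 6 h. In myoblasts at 3 h 5 of 13 other stretch- or swelling-activated channel genes were called, 2 higher and 3 lower, among them Kcnk2 (-0.31), Asic1, an acid-sensing cation channel (-0.30), and Lrrc8d (0.17). Of 16 calcium store and entry genes 3 were higher and 4 lower, with Orai2 at 0.33 and Orai3 at -0.28, which encode pores of store-operated calcium entry. At 6 h 4 of those 16 were higher and 2 lower, with Atp2a2, the calcium pump of slow muscle and non-muscle cells, at 0.39, Orai1 at 0.23 and Stim2, a sensor of store calcium, at -0.21. Of 7 other TRP genes tested, Trpm6 was lower at 3 h (-0.40) and Mcoln1, a lysosomal channel, was higher at 6 h (0.21).

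In differentiated cells at 3 h, where 22.2% of all genes were called, 14 other stretch- or swelling-activated channel genes had 1 higher and 1 lower. Kcnk2 was again lower (-0.44). Of 17 calcium store and entry genes 1 was higher and 1 lower, with Atp2b4, a plasma membrane calcium pump, at 0.43. Of 9 other TRP genes tested 1 was higher and 1 lower, and of 7 voltage-gated calcium channel genes 1 was lower. At 6 h 4 of 7 voltage-gated calcium channel genes were called, all lower, where 22.3% of all genes were called, with Stac3 at -0.27, Cacnb1 at -0.17 and Cacng1 at -0.13. The fourth, Cacna1g, which encodes a T-type channel pore and was named after its values had been seen, passed the fold limit as well (-1.28, SE 0.35, edgeR adjusted p = 0.026), with from 11 to 17 counts without and from 3 to 8 counts with stretching. Such counts could pass the filter through the non-stretched libraries alone. Of 9 scaffold and auxiliary genes tested 1 was called higher and 1 lower, with Cav3 at -0.29. Of 17 calcium store and entry genes 0 were higher and 2 lower, with Atp2a1 at -0.29 and Casq1 at -0.21. Among 14 other stretch- or swelling-activated channel genes 1 was higher and 1 lower. The muscle marker Actn2 was lower at this time (-0.34), the only 1 of 8 markers that was called, and the estimates of all 8 were negative. The summed level of the 8 markers was from 11448 to 12265 CPM without and from 10505 to 11513 CPM with stretching. Of 3 markers of reserve or satellite cells 1 was called, higher by 0.51 on the log2 scale. The part of these markers in the values above was not tested.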

How the data were processed

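RNA of 48 libraries was analysed. Per the labels' processing notes the authors used STAR, Salmon and DESeq2 with the mm10 build, and they deposited whole-number counts per gene symbol without normalization, 1 table per stage. All 48 columns were used. Members and lists were chosen with earlier results of these data known. Other genes are named by rule: in stretch comparisons at most 3 per list with the lowest p among those called, in the stage comparison at most 4 with the largest change and a mean of at least 100 counts.

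Counts were filtered with filterByExpr, scaled with TMM and tested two-sided with edgeR 4.0.16 in R 4.3.3 (glmQLFTest), with Benjamini-Hochberg adjustment over all genes tested. The 8 libraries of a time point entered each stretch fit. For the stage comparison the tables were joined by symbol and time was a covariate. Scripts were tested on simulated data. A result for 1 listed gene is not reported here. Alternatives included DESeq2 1.42.0, RLE, other filters, all 24 libraries, experiment or replicate number as a term, and leaving out libraries. Depth limits precision mainly for Trpc1 and Trpv2.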

Additional observations from a re-analysis of the deposited data

Results flagged for a closer look

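In 5 of the 120 groups of 4 libraries tested, about as many as the 6 that chance gives, 1 library lay far from the other 3. In myoblasts these were Tmem63a in stretched replicate 10 at 6 h (80.9 CPM), Trpc1 in stretched replicate 9 at 6 h (5.62 CPM), Trpm7 in non-stretched replicate 9 at 1 h (165 CPM) and Trpv2 in non-stretched replicate 7 at 3 h (9.10 CPM). In differentiated cells it was Tmem63b in non-stretched replicate 9 at 1 h (111 CPM). The effect of stretching on myoblasts differed between 6 h and 3 h for Trpc1 (-0.45 on the log2 scale) and Pkd1 (0.27), by a test of the difference added after the values of Trpc1 were seen.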

How the results depend on the processing

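The samples, comparisons and alternatives below were set with earlier results of these data known. No alternative that kept both limits put a member past them in a stretch comparison. Without the fold limit the members called were 6, 2 and 1 in myoblasts at 3 h and 6 h and differentiated cells at 3 h, and 9 between stages. With all 24 libraries of a stage in 1 model, members with an adjusted p under 0.05 were 1 (myoblasts, 1 h), 3 (myoblasts, 3 h) and 0 (differentiated cells, 3 h), the last also without a filter on low counts. For 6 h against 3 h in myoblasts 1 member was called by DESeq2 and 1 with all 24 libraries. Same-numbered libraries did not deviate together in every pair of any comparison (highest correlation 0.14), so the numbers were not taken to pair them. With the replicate number as a block, 1 member (Trpc1) was called for 6 h against 1 h in myoblasts, and the genes called by both limits went from 42 to 56 in differentiated cells at 1 h. With this block Trpc1 (edgeR adjusted p = 0.072) and Pkd2 (0.059) were not called in myoblasts at 3 h, and in differentiated cells at 3 h Trpm7 (0.054) was not called and Piezo2 (0.022) was. For the difference between stages the block took the genes called from 0 to 11 higher and 2 lower at 1 h. In no comparison did every library correlate best with its own number. With the experiment as a covariate more genes had an adjusted p under 0.05 in differentiated cells. At 1 h 112 were higher and 180 lower, against 30 and 73 in the main fit. At 3 h they were 2161 and 2200, against 1676 and 1767. For 6 h against 1 h they were 1398 and 1178, against 812 and 577. Leaving out 1 library gave from 3 to 6 members in myoblasts at 3 h, from 0 to 1 in differentiated cells at 3 h, from 0 to 1 in those of 6 h, from 0 to 1 for 6 h against 1 h in myoblasts, from 1 to 2 for 6 h against 3 h in myoblasts and from 0 to 1 in differentiated cells. Leaving out 1 library also moved the number of all genes called by over 1.5 times in comparisons other than those at 1 h: by both limits in myoblasts at 6 h from 324 to 211 without stretched replicate 9, by the adjusted p in differentiated cells at 6 h from 3438 to 2224 without non-stretched replicate 8, and between 6 h and 1 h in differentiated cells from 1389 to 835 without the same library, 883 without stretched replicate 7 and 910 without stretched replicate 9 of 6 h. For the difference between stages the genes called went at 3 h from 291 to 187, 186 and 174 without stretched myoblast replicates 7, 8 and 9 and to 181 without stretched differentiated replicate 7, at 6 h from 842 to 471 and 553 without non-stretched myoblast replicates 9 and 10, to 522 without stretched myoblast replicate 9 and to 514 without non-stretched differentiated replicate 8, and at 1 h from 0 to 9 without stretched differentiated replicate 4 and to 1 without its replicate 9. In myoblasts at 1 h the genes past both limits went from 187 to 123 without stretched replicate 9. Changes of sign concerned only effects that were not called with all libraries. In differentiated cells at 1 h they were Trpc1 (-0.015 with the experiment as covariate, -0.013 with the block), Trpm4 (0.0097, block), Pkd2 (-0.010 and -0.017) and Tmem63a (0.0052 with DESeq2, 0.0053 with RLE, 0.015 with the covariate, 0.025 with the block, 0.0021 with 24 libraries). Between stages Piezo2 gave -0.055 at 1 h, -0.031 at 3 h and -0.042 in the later experiments alone. For the difference between stages the block gave Trpc1 -0.016, Trpm7 -0.0022, Trpv2 -0.0042 and Pkd2 -0.0048 at 1 h, and DESeq2 and RLE gave Pkd2 0.0088 and 0.0086 at 6 h. Leaving out 1 library moved the following log2 effects across 0. In myoblasts at 1 h these were Trpc1 (-0.059 to 0.030), Trpm7 (-0.063 to 0.025), Pkd1 (-0.072 to 0.084) and Tmem63a (-0.0010 to 0.049), and at 6 h Piezo2 (-0.010 to 0.092), Pkd1 (-0.041 to 0.095) and Tmem63a (-0.041 to 0.021). In differentiated cells at 1 h they were Piezo1 (-0.021 to 0.063), Trpc1 (-0.039 to 0.062), Trpm4 (-0.061 to 0.0063), Trpm7 (-0.056 to 0.0048), Pkd1 (-0.12 to 0.066), Pkd2 (-0.010 to 0.027) and Tmem63a (-0.027 to 0.024), and at 3 h Trpc1 (-0.059 to 0.042) and Pkd1 (-0.13 to 0.0073). Between stages it was Piezo2 (-0.014 to 0.033). For 6 h against 1 h in myoblasts they were Trpv2 (-0.014 to 0.12) and Pkd1 (-0.059 to 0.12), for 6 h against 3 h in myoblasts Piezo1 (-0.017 to 0.038) and Pkd2 (-0.027 to 0.0050), and in differentiated cells Trpm4 (-0.041 to 0.025), Trpm7 (-0.026 to 0.041), Pkd2 (-0.035 to 0.0030) and Tmem63b (-0.0050 to 0.027). For the difference between stages they were Trpc1 (-0.038 to 0.066), Trpm7 (-0.057 to 0.036), Trpv2 (-0.034 to 0.091), Pkd1 (-0.14 to 0.040) and Pkd2 (-0.0029 to 0.033) at 1 h, Piezo1 (-0.062 to 0.021), Trpv2 (-0.16 to 0.017) and Pkd2 (-0.022 to 0.019) at 3 h, and Trpm7 (-0.0046 to 0.065) and Pkd2 (-0.011 to 0.025) at 6 h. The causes were not tested. Depth limits Trpc1 and Trpv2 most, with from 206 to 479 and from 227 to 537 counts in a non-stretched library.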
